A study of Mus musculus with 3 samples.

Results

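The Rab genes encode small GTPases that direct membrane traffic, and their chromatin was examined here for peaks of HDAC3 and KLF4 in mouse epidermis. The members were the protein-coding mouse genes whose symbol is Rab followed by a number and an optional letter, without the genes for proteins that only interact with Rabs. This gave 59 genes of 21887 protein-coding genes on the chromosomes of GRCm38. The study had precipitated chromatin from fixed dorsal epidermis, taken shortly before birth (E18.5) from embryos of wild-type genotype, with an antibody to HDAC3 (Abcam ab7030) or to KLF4 (R&D AF3158). An input without antibody served as the common control, and all 3 libraries shared the wild-type genotype, tissue and stage. There was 1 library per antibody, so no difference between genes or factors was tested against replicate spread.

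A Rab protein is switched on by a guanine nucleotide exchange factor (GEF), recruits effectors such as tethers and motors to the membrane it sits on, and is switched off by a GTPase-activating protein (GAP). Different Rabs mark different compartments, and keratinocytes use them to recycle adhesion proteins, build polarised membranes, secrete, and take up melanosomes from pigment cells. HDAC3 is the catalytic subunit of the NCoR and SMRT corepressor complexes and does not itself read a DNA sequence. KLF4 is a zinc finger transcription factor of the upper epidermis that is needed for the skin barrier, and it recognises GC-rich sites with a CACCC core.

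The HDAC3 library held 56787485 tags with 3.95% of them in 57936 peaks, and the KLF4 library held 61432711 tags with 6.81% in 47155 peaks. Each peak is 185 bp wide, and its height is given below as the authors' score from the HOMER peak caller, which starts at 16 in the HDAC3 list and at 19 in the KLF4 list. Scores rank peaks within one list and are not comparable between the lists. Tags are given per 10000000 sequenced tags (normalised tags) with 95% exact Poisson intervals, and shares of peaks with 95% Clopper-Pearson intervals. Both cover counting error only, since there was 1 library per antibody. They treat tags or peaks as independent, which PCR copies and several peaks of one gene are not, so they can be too narrow. A peak says that chromatin was recovered with an antibody and gives no expression level. Among genes that mark cell types, gene-end peaks were found at 1 (HDAC3) and 2 (KLF4) of 7 keratinocyte genes, at 2 and 2 of 6 melanocyte genes, at 2 and 1 of 6 fibroblast genes, and at 0 of 5 endothelial and 0 of 5 immune genes in either list. Such peaks, with their centre within 1 kb of a gene end, were at 18.9% of all protein-coding genes for HDAC3 and at 23.1% for KLF4. The melanocyte counts include Pmel, which shares a gene-end peak of each list with Rab5b. The lists therefore do not show which cell types the chromatin came from, and a part of other cells in the results was not tested.

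Peaks at a member were those nearest to it or with their centre within 1 kb of one of its ends. There were 140 such HDAC3 peaks and 175 KLF4 peaks. A peak within 1 kb of either end is called a gene-end peak. The strand was known for 48 of the 59 genes, and the end where their transcription begins is called the start end.

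The promoters of 5 members show how differently the peaks sit on the sequence. They come from the RefSeq promoter table of GRCm38.p6, which gives 250 bp before and 50 bp after a start site, and all 5 lie on the minus strand. Rab25 and Rab11a are shown because their gene-end peaks were the highest of both lists among the members, Rab40b and Rab42 because their KLF4 peaks lie wholly in the window and hold the KLF-type pattern searched for, and Rab17 because HDAC3 lies there without KLF4. The sequences run 5′ to 3′ along the gene. Capitals mark the bases inside a KLF4 peak, or for Rab17 inside an HDAC3 peak. The windows are chr3:88548230-88548529 for Rab25, chr9:64737707-64738006 for Rab11a, chr11:121388202-121388501 for Rab40b, chr4:132303307-132303606 for Rab42 and chr1:90967618-90967917 for Rab17.
Rab25: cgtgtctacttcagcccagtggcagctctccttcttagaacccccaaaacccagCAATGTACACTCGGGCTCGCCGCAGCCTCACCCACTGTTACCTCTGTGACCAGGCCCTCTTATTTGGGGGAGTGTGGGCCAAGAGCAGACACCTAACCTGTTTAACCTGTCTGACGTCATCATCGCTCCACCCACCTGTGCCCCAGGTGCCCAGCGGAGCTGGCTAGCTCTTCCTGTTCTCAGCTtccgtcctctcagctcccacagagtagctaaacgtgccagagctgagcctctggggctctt
Rab11a: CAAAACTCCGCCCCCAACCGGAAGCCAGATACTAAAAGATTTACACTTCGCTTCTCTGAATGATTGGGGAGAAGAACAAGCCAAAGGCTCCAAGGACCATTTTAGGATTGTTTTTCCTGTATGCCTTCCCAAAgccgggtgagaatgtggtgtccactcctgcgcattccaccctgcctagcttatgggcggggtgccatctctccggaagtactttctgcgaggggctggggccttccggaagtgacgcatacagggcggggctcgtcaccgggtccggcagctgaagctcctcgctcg
Rab40b: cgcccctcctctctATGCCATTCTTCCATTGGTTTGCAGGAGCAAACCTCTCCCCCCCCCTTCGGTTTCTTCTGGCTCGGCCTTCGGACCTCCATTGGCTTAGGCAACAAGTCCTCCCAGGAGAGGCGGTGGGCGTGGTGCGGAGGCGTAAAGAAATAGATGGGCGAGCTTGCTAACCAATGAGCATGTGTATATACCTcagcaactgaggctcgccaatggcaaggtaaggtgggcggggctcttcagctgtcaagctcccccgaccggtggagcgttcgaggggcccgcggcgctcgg
Rab42: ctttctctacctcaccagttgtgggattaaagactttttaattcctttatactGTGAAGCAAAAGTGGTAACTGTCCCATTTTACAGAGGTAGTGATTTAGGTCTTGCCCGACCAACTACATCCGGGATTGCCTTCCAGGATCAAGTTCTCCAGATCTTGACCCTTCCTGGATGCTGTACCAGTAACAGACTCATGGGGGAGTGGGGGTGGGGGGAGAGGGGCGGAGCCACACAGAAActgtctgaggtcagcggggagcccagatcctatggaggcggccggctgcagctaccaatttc
Rab17: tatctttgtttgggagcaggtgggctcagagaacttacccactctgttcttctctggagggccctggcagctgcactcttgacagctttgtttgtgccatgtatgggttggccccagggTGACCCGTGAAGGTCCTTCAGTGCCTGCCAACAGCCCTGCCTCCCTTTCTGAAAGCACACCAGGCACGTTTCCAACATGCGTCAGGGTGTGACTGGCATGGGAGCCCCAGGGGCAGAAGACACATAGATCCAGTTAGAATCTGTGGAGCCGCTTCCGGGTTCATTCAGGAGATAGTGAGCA

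Of the 59 Rab genes, 30 (50.8%) had a KLF4 gene-end peak, where 23.1% of all protein-coding genes had one. HDAC3 gene-end peaks were found at 16 Rab genes (27.1%), against 18.9% of all genes, and peaks of both factors at 12 (20.3%), against 10.3%. The surplus lay mostly with genes that had KLF4 alone, which were 18 Rab genes (30.5%) against 12.8% of all genes. HDAC3 alone was found at 4 (6.78%) against 8.65%. At least 1 of the factors was at 34 Rab genes (57.6%) against 31.7% of all genes, and the other 25 Rab genes had neither. These shares describe the family beside the genome and were not tested.

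**Figure D1:**
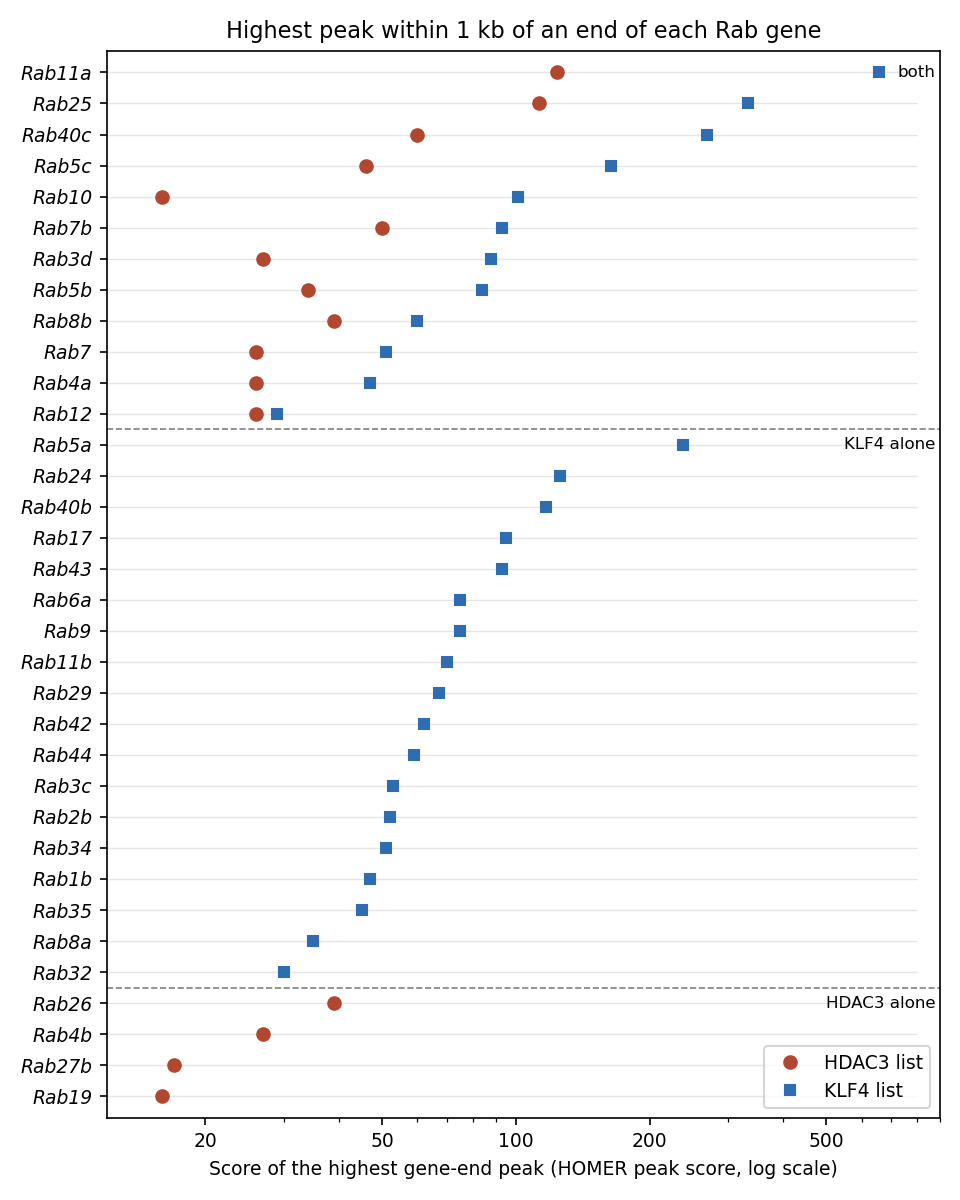
Score of the highest HDAC3 peak (circles) and KLF4 peak (squares) within 1 kb of an end of each of the 34 Rab genes that had one, on a log axis; the dashed lines separate genes with both factors, KLF4 alone and HDAC3 alone. Rab11a and Rab25 lead both lists, with HDAC3 scores of 124 and 113 and KLF4 scores of 656 and 333.

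The KLF4 share of the Rab genes was above that of all genes at every window tried. Within 250 bp of an end it was 18.6% against 10.4%, within 5 kb 74.6% against 46.0%, and within 50 kb 96.6% against 77.5%. The HDAC3 share was 6.78% against 7.2% within 250 bp, thus no higher than in all genes, and 55.9% against 46.2% within 5 kb. Both factors lay within 5 kb of 47.5% of the Rab genes and of 30.7% of all genes. Rab genes were longer, with a median of 23213 bp against 17169 bp, and the shares were not adjusted for length. All peaks nearest to the gene or within 1 kb of its ends were also counted. By this rule 45 Rab genes (76.3%) had an HDAC3 peak against 65.3% of all genes. A KLF4 peak was found at 53 (89.8%) against 60.3%, and both at 42 (71.2%) against 50.9%.

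**Figure D2:**
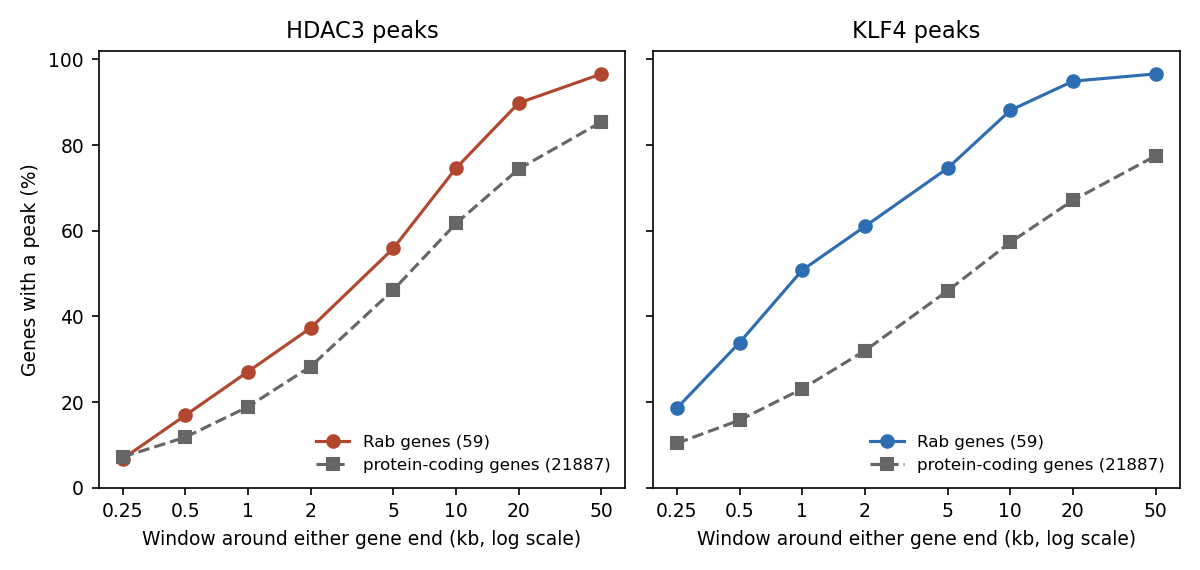
Share of genes (percent) with an HDAC3 peak (left) or a KLF4 peak (right) within a window of 0.25 to 50 kb (log axis) of either gene end, for the 59 Rab genes (solid line) and all 21887 protein-coding genes (dashed line). The KLF4 lines stay apart from 0.25 kb on, while the HDAC3 lines start together, at 6.78% and 7.2%.

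Among the 48 Rab genes of known strand, the KLF4 peaks belonged mainly to the start end. It carried a KLF4 peak at 24 of 48 (50%), where 19.4% of all such genes had one, and an HDAC3 peak at 9 (18.8%) against 14.5%. Both factors were at the start end of 8 (16.7%) against 8.01%. At the other end the counts were 6 for KLF4 (12.5%) against 5.79% and 3 for HDAC3 (6.25%) against 5.74%. Within the start-end window, 8 of 27 Rab KLF4 peaks (29.6%) had their centre within 200 bp of the start end, against 37.9% for all genes, with a median distance of 359 bp against 297 bp. For HDAC3 this was 2 of 11 (18.2%) against 34.8%, at a median of 392 bp against 323 bp. With so few peaks these distances are given as a description.

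The promoters of Rab genes differed in base composition from those of all protein-coding genes. The 60 listed promoters of Rab genes had a median GC content of 61.2% and a median CpG observed-to-expected ratio of 0.734, against 56.3% and 0.567 for all 21263 promoters. KLF4 gene-end peaks were more frequent at CpG-rich promoters in general, so the family was divided by this property (a ratio of at least 0.6 and at least 55% GC). Among genes with a CpG-rich promoter, 18 of 34 Rab genes (52.9%) had a KLF4 gene-end peak against 31.2% of all, and 9 (26.5%) an HDAC3 peak against 24.2%. Among genes with listed promoters of which none was CpG-rich, 9 of 14 Rab genes (64.3%) had a KLF4 peak against 17.1%. An HDAC3 peak was at 3 of them (21.4%) against 14.8%. The 11 Rab genes without a listed promoter are in neither class. The KLF4 share of Rab genes was thus above that of all genes in both classes, and the HDAC3 share differed by little in the CpG-rich class.

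Letters of known binding patterns were searched on both strands of these promoters. The KLF-type pattern GGGNGTGG was in 12 of 60 Rab promoters (20%) and in 19.4% of all. Of the 10 Rab promoters with at least 93 bp inside a KLF4 peak, 2 held it (Rab40b and Rab42), against 28.2% of all 1542 such promoters. The Rab5a promoter, not shown, has 70 bp inside a KLF4 peak and 1 match in them. The shorter CACCC core, searched after the values were seen and able to share letters with the longer pattern, was in 43 Rab promoters (71.7%) against 59.5%. Counted anywhere in the window, it was in 7 of the 10 Rab promoters with a KLF4 peak (70%) and in 33 of 46 without one (71.7%). Over all promoters these shares were 68.4% and 58.6%. Promoters with fewer than 93 bp in a KLF4 peak are in neither class, and the 10 include overlapping windows of Rab43. In the windows of Rab11a and Rab34, and in the Rab43 window with 110 bp in a peak, the core lay only outside the KLF4 peak. The AP-1 pattern TGANTCA was in 3 of the 60 Rab promoters (5.0%) against 6.99% of all. The E-box CACGTG, read by TFEB-type factors of lysosomal genes, was in 6 (10%) against 7.84%. The grainyhead-type pattern AACNGGTT was in 1, that of Rab25, and in 1.95% of all. In the capitals printed above, Rab40b held 1 KLF-type match, and Rab42 held 2 of them and 1 CACCC core. Rab25 held 2 CACCC cores and the grainyhead-type match there, Rab17 held 1 CACCC core, and Rab11a held none of the patterns. The Rab11a window had 3 CACCC cores outside its capitals, within the HDAC3 peak that is not marked there. The Rab25, Rab42 and Rab17 windows were CpG-poor for the family, with ratios of 0.37, 0.3 and 0.22, while Rab11a and Rab40b had 0.67 and 0.69. A match is a description of the letters and not a binding site.

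The members were also counted by the membranes they serve, beside shares over all protein-coding genes of 23.1% for KLF4, 18.9% for HDAC3 and 10.3% for both. KLF4 was at 5 of 8 early endocytic Rabs, 6 of 9 recycling Rabs and 4 of 7 late endosomal and lysosomal Rabs, and at 4 of 14 Rabs of the endoplasmic reticulum and Golgi (62.5%, 66.7%, 57.1% and 28.6%). HDAC3 was at 2, 4, 3 and 1 of these (25%, 44.4%, 42.9% and 7.14%). Both factors together were at 2, 3, 3 and 0. The KLF4 share of the endoplasmic reticulum and Golgi group was thus near that of all genes. Secretory Rabs had 3 with HDAC3 and 3 with KLF4 of 9, with 1 in common, the Rabs of polarised export, junctions and cilia had 2 and 3 of 6, and the Rabs of lysosome-related organelles had 0 and 2 of 3. The early endocytic group includes Rab24, linked to autophagy, and Rab34, an organelle-positioning Rab, both with KLF4 alone. The groups were chosen with earlier results of these data known. They are small and a Rab can act at several membranes, so these counts describe and do not rank the routes.

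**Figure D3:**
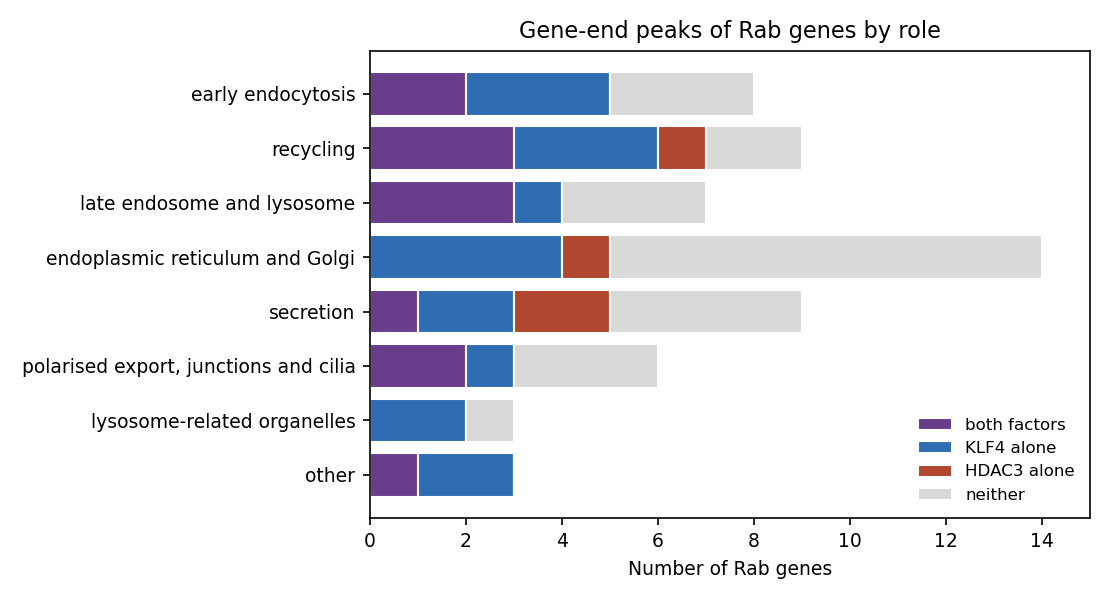
Number of Rab genes in each role with gene-end peaks of both factors, KLF4 alone, HDAC3 alone or neither (bar segments). The 14 genes of the endoplasmic reticulum and Golgi include 9 with neither and none with both; the 9 recycling genes include 3 with both.

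The highest gene-end peaks in the family were at 2 recycling Rabs of one subfamily. Rab11a, which carries cargo from the recycling endosome to the surface, spans chr9:64715300-64737756 on the minus strand. Its KLF4 peak at chr9:64736688-64736872 lay inside the gene, 976 bp from the start end, with a score of 656, 140.2 normalised tags (131 to 150) and 77.9-fold the input, which had 5 tags there. The HDAC3 peak 4 bp away had a score of 124, 29.2 tags (25 to 34) and 16.25-fold the input. A second pair stood just before the start site, with scores of 223 for KLF4 at 210 bp upstream and 49 for HDAC3 at 111 bp upstream. Its KLF4 peak covers the 133 bases in capitals above. The gene table used has no exons, so the peaks inside genes are not assigned to exons or introns.

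Rab25, the epithelial member of the Rab11 subfamily, is a short gene (chr3:88542029-88548279, minus strand) with its leading pair on the promoter. The KLF4 peak at chr3:88548291-88548475 lay 104 bp upstream of the start site with a score of 333, 59.1 normalised tags (53.2 to 65.5) and 16.47-fold the input. HDAC3 was 33 bp away with a score of 113, 26.9 tags (22.8 to 31.6) and 6.81-fold. A KLF4 peak of score 204 without HDAC3 lay 1067 bp inside the gene. The third gene of the subfamily, Rab11b, which is expressed in many tissues, had no HDAC3 peak nearest to it. Its KLF4 peaks had scores of 70 at 697 bp inside the start end, 42 and 41, and were thus low beside those of Rab11a and Rab25.

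**Figure D4:**
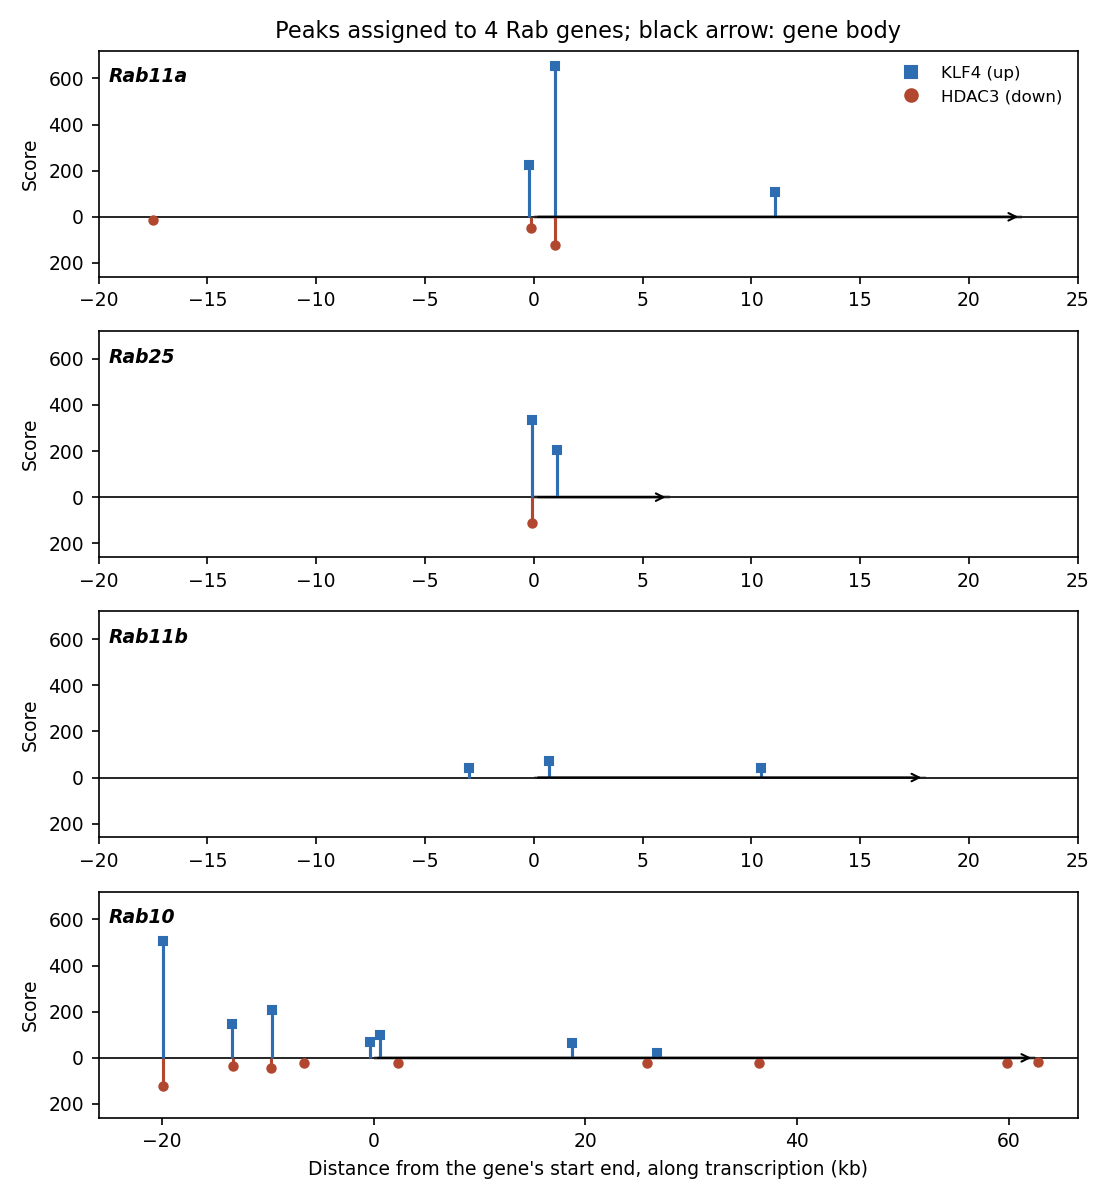
Peaks assigned to Rab11a, Rab25, Rab11b and Rab10, by distance from the start end along transcription (kb), with KLF4 scores drawn upward and HDAC3 scores downward; the black arrow is the gene. Rab11a and Rab25 carry their highest pairs close to the start, Rab11b has KLF4 peaks alone (70, 42 and 41), and the highest pair of Rab10 (506 and 122) lies 19.9 kb upstream; 3 KLF4 and 2 HDAC3 peaks of Rab10 farther downstream are outside the plotted range.

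Other recycling Rabs had lower or separate peaks. Rab4a, which returns receptors quickly to the surface, had gene-end scores of 26 for HDAC3 and 47 for KLF4 that did not overlap, while its close relative Rab4b had HDAC3 alone (27) and no KLF4 peak nearest to it. Rab17, an epithelial Rab of apical recycling, had a KLF4 peak of 95 at 131 bp upstream of its start end and an HDAC3 peak of 93 (percentile 98.2 of its list) 2098 bp away. The HDAC3 peak lay inside the gene, 1967 bp from the start end, at the start site of the promoter table printed above. The factors were thus apart at Rab17. Rab35, which acts at the plasma membrane and in cell division, had KLF4 alone (45).

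In the early endocytic group, all 3 genes of Rab5, the regulator of early endosome fusion, carried KLF4 at the start end, and they differed in HDAC3. At Rab5c the factors were 4 bp apart, 355 and 351 bp upstream, with scores of 164 for KLF4 (28 normalised tags, 24 to 32.5) and 46 for HDAC3 (10.6 tags, 8.06 to 13.6). At Rab5b the scores were 84 and 34, with the centres 115 bp apart, and both peaks also lay within 1 kb of the neighbouring melanosome gene Pmel, so they cannot be given to one of these genes. Rab5a had the KLF4 peaks with the higher scores, 238 at 864 bp and 177 at 273 bp upstream, and no HDAC3 peak closer than 7067 bp. Rab24, linked to autophagy, had KLF4 peaks of 126 and 60, the lower of them shared with Prelid1, and an HDAC3 peak of 42 at 774 bp from the higher one. Rab34, an organelle-positioning Rab that also serves cilia, had KLF4 alone (51) and no HDAC3 peak.

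Of the late endosomal Rabs, only Rab7, Rab7b and Rab12 had overlapping pairs, and their stronger pairs lay away from the gene ends. The same held for members of other groups, such as Rab10 and Rab44. Rab7, which drives fusion of late endosomes with lysosomes, had gene-end scores of 26 for HDAC3 and 51 for KLF4, 1232 bp apart, and a pair of 49 and 309 about 8.3 kb upstream (8286 and 8306 bp). Rab7b, which acts between late endosomes and the Golgi, had 50 and 87 in an overlapping pair at an end, a second KLF4 peak of 93 there, and inside the gene a pair of 117 and 244 with centres 63 bp apart. Rab12, a Rab of degradation of recycling receptors, had the lowest KLF4 gene-end score of the family, 29, 7 bp from an HDAC3 peak of 26 at its other end. Rab9, which serves retrograde traffic to the Golgi, had KLF4 alone (75), and its X-linked relative Rab9b had no peak of either list nearest to it.

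For the Rabs of polarised export, Rab10 and the pair Rab8a and Rab8b, the gene ends and the distal peaks differed. Rab10, which drives exocytosis towards the basolateral membrane, had a KLF4 peak of 101 at its start end and an HDAC3 peak of 16, the lowest score of the HDAC3 list, at its other end. The highest pair assigned to it occupied the same interval in both lists, chr12:3329806-3329990, 19929 bp upstream of the start end. KLF4 scored 506 there with 97.8 normalised tags (90.2 to 106) and 90.63-fold the input, and HDAC3 scored 122 with 26.6 tags (22.5 to 31.2) and 25.12-fold. Its assignment rests on nearness alone. Rab8b had scores of 39 and 60 and Rab8a KLF4 alone (35), both Rabs of transport to the apical surface and the cilium. Rab13 of tight junctions, Rab23, a regulator of hedgehog signalling, and Rab28 of cilia had no gene-end peak.

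Of the secretory Rabs, Rab3d of secretory granules was the only one with both gene-end peaks, which scored 27 for HDAC3 and 88 for KLF4 at 28 bp from each other. Rab27b, which docks secretory vesicles, had the most HDAC3 peaks of any member, 16, with 12 KLF4 peaks and 7 overlapping pairs over a gene of 162503 bp, the highest pair scoring 67 and 243. Length did not go with the number of peaks in every case: Rab3c, a neuronal Rab of 226810 bp, had 3 HDAC3 and 3 KLF4 peaks, the highest a KLF4 gene-end peak of 53, and no pair. Rab27a, known for holding melanosomes at the cell edge, had no gene-end peak, 3 peaks of each factor, and a highest pair of 55 and 120. Rab26, a Rab of granule maturation, had an HDAC3 peak of 39 that it shared with Traf7.

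Rab44, a large Rab of granule release in immune cells, held the highest HDAC3 peak of the family, and it was chosen for description after its values were seen. The peaks of both lists covered the same interval, chr17:29134290-29134474, inside the gene, with scores of 193 for HDAC3 (50.2 normalised tags, 13.95-fold the input) and 526 for KLF4 (97.5 tags, 22.81-fold). A second pair in the gene scored 74 and 418. At the ends of Rab44 there was only a KLF4 peak of 59. The cell type in which these peaks were bound was not measured.

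Of the remaining members, Rab40c, Rab40b and Rab42 all carried KLF4. Rab40c, an adaptor of a ubiquitin ligase, had a pair of 270 for KLF4 and 60 for HDAC3 with centres 7 bp apart, 684 and 691 bp upstream, and a second of 223 and 58 about 2.2 kb inside the gene (2165 and 2199 bp). The related Rab40b had KLF4 alone, with a score of 117. At Rab42 the KLF4 scores were 62 and 33, with no HDAC3 peak nearest to it. In the Golgi group Rab43 (93), Rab6a (75), Rab2b (52) and Rab1b (47) had KLF4 alone; those of Rab2b and Rab1b also lay at the ends of Tox4 and Cnih2. Rab19 had HDAC3 alone, with a score of 16. Rab29, a partner of the kinase Lrrk2, had KLF4 alone (67), as had Rab32 (30), which brings pigment enzymes to melanosomes and had a pair of 35 and 86 inside the gene. Rab38, which does the same, had no gene-end peak. Its 3 overlapping pairs scored 50 and 93, 25 and 39, and 55 and 73, and its highest KLF4 peak, of 196, overlapped no HDAC3 peak.

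Among the 25 Rab genes without a gene-end peak, 17 had an HDAC3 peak elsewhere (68% against 55.7% of all genes without a gene-end peak), 21 a KLF4 peak (84% against 46.6%) and 10 an overlapping pair (40% against 24.9%). In all, 3 had no peak (Rab39, Rab33a and Rab9b). Over the whole family, 56 of 59 Rab genes (94.9%) had an assigned peak in at least 1 list, against 74.7% of all genes. The 25 genes without a gene-end peak were ranked by their best single peak within its list. The first 5 were Rab14, Rab22a, Rab30, Rab15 and Rab21, and the best peak was an HDAC3 peak in each case. All 5 are of endosomes except Rab30, which is a Golgi Rab. Rab14, of endosome-to-Golgi traffic, had HDAC3 at 103 and KLF4 at 178 with centres 24 bp apart inside the gene, 6958 and 6934 bp from the start end, standing 47.51-fold and 34.28-fold above the surrounding 10 kb. Rab22a, which feeds cargo into recycling tubules, had 3 pairs, of which the highest scored 103 and 159 at 12472 and 12465 bp upstream. Rab15, of the recycling endosome, also had 3 pairs, the highest with 73 and 201 inside the gene. Rab30 had 3 pairs too, of 78 and 90, 61 and 145, and 20 and 60, and a KLF4 peak of 189 without HDAC3. Rab21, which moves integrins, had 1 pair of 60 and 80 that barely overlapped, with centres 183 bp apart. At these genes the factors stood together more than 1 kb from the gene ends, but not always away from a listed promoter. The highest Rab15 pair reached into the promoter window of a start site inside the gene, with 81 bp of KLF4 and 17 bp of HDAC3. The Rab21 HDAC3 peak covered 144 bp of a listed promoter window, with its centre 199 bp upstream of that start site.

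Apart from Rab27a and Rab38, described above, the other members without a gene-end peak had peaks at a distance. Their HDAC3 scores reached at most 49 (Rab3b), with 6 HDAC3 peaks at Rab2a, 5 at Rab28, 4 at Rab18, 3 at Rab31, and 2 each at Rab1a, Rab37, Rab20, Rab3b, Rab6b and Rab23. Rab1a, which takes cargo from the endoplasmic reticulum to the Golgi, had a KLF4 peak of 181 at 23248 bp upstream and 1 pair of 33 and 47. Rab31, of the trans-Golgi network and endosomes, had a KLF4 peak of 165 at 4861 bp upstream. The highest KLF4 scores were 136 at Rab37, 118 at Rab20 and 114 at Rab3b, where HDAC3 covered the same interval with 49. Rab2a, of the early secretory route, had 2 pairs and a highest KLF4 score of 88. The remaining 9 genes had low peaks: the highest KLF4 score was 62 at Rab6b, 55 at Rab13, 54 at Rab3a, 53 at Rab33b, 52 at Rab18, 26 at Rab36 and at Rab39b and 22 at Rab28, and Rab23 had only HDAC3 peaks, up to 19.

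Over all members, 53 of 140 HDAC3 peaks (37.9%, 29.8 to 46.4) overlapped a KLF4 peak, against 25.8% of all HDAC3 peaks. Seen from KLF4, 53 of 175 peaks (30.3%, 23.6 to 37.7) overlapped an HDAC3 peak, against 31.7% of all, so the share was near that of the whole list. At gene ends the shares were 10 of 18 HDAC3 peaks (55.6%, 30.8 to 78.5) against 40.9%, and 10 of 37 KLF4 peaks (27.0%, 13.8 to 44.1) against 32.6%. Of the 12 genes with both factors at their ends, 9 had the peaks overlapping there, and the exceptions were Rab10, Rab7 and Rab4a. The same count was not made over all genes with both, so it is not read as a trait of the Rab genes. The 53 pairs lay in 25 genes, and the share of all genes with a pair was not counted. The centres of these 53 pairs were a median of 33 bp apart, against 31 bp over all 14962 pairs. The lists gave the same interval in 3 pairs (5.66%), at Rab10, Rab44 and Rab3b, and in 0.862% of all pairs. Both lists were called against the same input, and the part of that input in the overlap was not tested.

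Heights were like those of the lists as a whole. The median score of peaks at Rab genes was 24 for HDAC3, against 22 in the list, and 63 for KLF4, against 65. Among the highest-scored 10% of each list were 20 HDAC3 peaks (14.3%) against 10.2%, and 22 KLF4 peaks (12.6%) against 10.1%. At gene ends these were 3 of 18 (16.7%) against 17.6% and 6 of 37 (16.2%) against 10.4%. The Rab genes with a gene-end peak had median top scores of 30.5 for HDAC3 and 72.5 for KLF4, against 30 and 73 for all genes with one. Peaks in pairs were higher than single ones: 46 against 20 for HDAC3 and 95 against 57 for KLF4 at Rab genes, as in the lists (43 against 20, and 93 against 56).

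**Figure D5:**
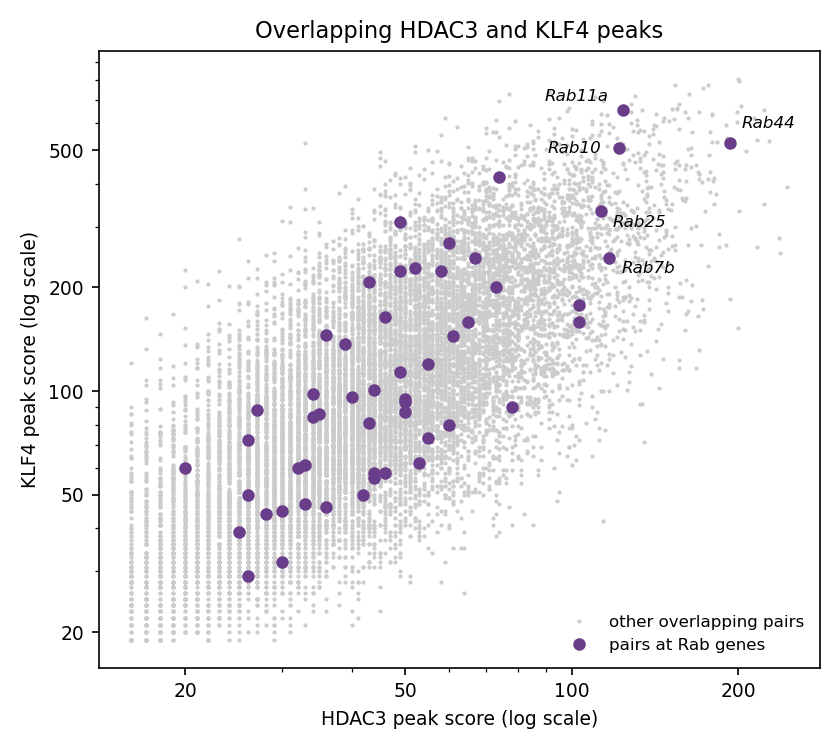
HDAC3 score against KLF4 score (log axes) of the 53 overlapping pairs at Rab genes (large points) and of the other overlapping pairs (small points). The pairs at Rab11a (124 and 656), Rab44 (193 and 526) and Rab10 (122 and 506) lie at the upper right end of the cloud.

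The machinery around the Rabs was compared with the Rabs themselves. Of 128 listed regulators and effectors, 39 (30.5%) had a KLF4 gene-end peak, 30 (23.4%) an HDAC3 peak and 18 (14.1%) both, beside 50.8%, 27.1% and 20.3% of the Rab genes and 23.1%, 18.9% and 10.3% of all protein-coding genes. KLF4 was at 13 of 35 GAPs, 17 of 54 effectors, 7 of 31 GEFs and 2 of 8 genes for prenylation and extraction from membranes (37.1%, 31.5%, 22.6% and 25%). HDAC3 was at 8, 10, 9 and 3 of them. The KLF4 shares of the GEFs and of the prenylation group were thus near that of all genes. The 6 genes of the list with the highest ranks in both lists were Unc13d, Dennd2c, Tbc1d15, Ehbp1l1, Exph5 and Sh3tc2. Unc13d, a Rab27 effector that primes secretory granules, had scores of 84 for HDAC3 and 592 for KLF4. Dennd2c, a GEF of the DENN family, had 74 and 188, and Tbc1d15, a GAP for Rab7, had 67 and 179. Exph5, a Rab27 effector known for skin fragility when mutated, had 77 and 122. Ehbp1l1, an effector of Rab8 and Rab10, had 49 and 204, and Sh3tc2, an effector of Rab11, had 42 and 179. These genes were named for their scores, and 77 of the 128 had no gene-end peak in either list. Over all protein-coding genes, 31.7% had a gene-end peak in at least 1 list and the rest had none.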

How the data were processed

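ChIP-seq peak lists of HDAC3 and KLF4 from wild-type E18.5 dorsal epidermis were analysed, 1 library each, grouped by the antibody in the labels. The submitters' processing notes name bcl2fastq, STAR, HOMER and GRCm38.p5, with tool versions not given in the sources used here. The file headers record that peaks were called for each library against the shared input in factor style, with a minimum of 4-fold over input and over the surrounding 10 kb, a p-value of 1e-04 and a false discovery rate of 0.001. The deposited lists give tag signal per 10000000 tags, input tag counts, a score, fold ratios over input and surroundings, p-values and a focus ratio (a fraction, not used). Input listed at 0.5 tags makes a fold imprecise.

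Peak centres were placed on RefSeq genes of GRCm38.p6 (strand from its promoter table, for 48 of 59 members) with Python 3.11.15, pandas 2.3.3 and scipy 1.17.1. The nearest gene has the least distance to its interval. Peaks overlap by at least 1 bp. The placement steps were tested on simulated data. The members, role groups and marker and regulator lists were chosen with earlier results of these data known. Of 130 listed regulators, 128 were found. Named were all genes with both gene-end peaks, the 5 highest gene-end scores per list, the 5 highest without a gene-end peak, those without peaks and the 6 top regulators; other members stand for completeness. Windows, score and fold limits, overlap distance and gene end were varied. Protein sequences were not used here.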

Additional observations from a re-analysis of the deposited data

How the results depend on the processing

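The counts of members depended on what was called a gene-end peak. For HDAC3, 16 genes became 10 within 500 bp, 33 within 5 kb, 6 with peaks at least 8-fold over input, 9 (of 48) at the start end only and 44 with any nearest peak. For KLF4, 30 became 14 at 8-fold, 17 with the higher-scored 50% of peaks and 52 with any nearest peak. For both factors, 12 became 28 within 5 kb, 2 at 8-fold, 7 with the higher-scored peaks and 41 with any nearest peak. In each of these settings the share of Rab genes was above that of all genes (for example at 8-fold, 10.2% against 6.76%, 23.7% against 11.0% and 3.39% against 2.86%). The overlapping share of HDAC3 peaks was 24.3% with centres at most 50 bp apart (all peaks 18%) and 55.6% at gene ends. That of KLF4 peaks was 19.4% within 50 bp (22.1%), 23.0% for peaks at least 8-fold over input (20.4%) and 42.5% in the higher-scored 50% (42.9%); it was below all peaks in each setting except at 8-fold. No paired analysis was possible because there is 1 library per antibody and no result comes from a test. Folds are coarse, since the median peak at a Rab gene rests on 3 (HDAC3) and 4 (KLF4) input tags.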
